A study of Mus musculus with 24 samples.

Results

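The m6A enrichment of transcripts was compared between the hippocampus of 5xFAD mice given MS1262 and that of 5xFAD mice given vehicle. Enrichment was the ratio, per gene and per animal, of the level in the RNA pulled down by an antibody against N6-methyladenosine (the IP library) to the level in the RNA taken before the pull-down (the input library). The comparison took every IP and input pair of the 2 groups of 5xFAD animals, 4 pairs each, which made 16 of the 24 libraries of the series. Of 55291 genes in the table, 18300 had enough counts to be tested. The remaining 8 libraries came from 4 untreated wild-type mice, which had received no vehicle. They were outside the comparison of MS1262 and vehicle, but entered the filter on counts, the scaling and the estimate of the spread. Their values are also given for reference at some genes. All comparisons were made with and without vehicle animal 4, whose IP library was shallow.

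The 5xFAD line carries human transgenes, APP among them, that hold mutations of inherited Alzheimer's disease and are driven in neurons by the Thy1 promoter. Both groups compared carried these transgenes and differed in treatment, MS1262 or vehicle. The series title describes MS1262 as a brain-penetrant inhibitor of G9a. Age, dose, sex and litter are not used here. Each animal gave one IP and one input library from polyadenylated RNA, of which 10% was kept as input. The protocol names no fragmentation before the pull-down, so a ratio describes whole transcripts and not single sites. Both libraries were amplified from full-length cDNA without molecular identifiers, and the counts were not tied to a strand, so a gene and its antisense partner cannot be told apart.

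N6-methyladenosine, or m6A, is an abundant methyl mark on adenosines inside messenger RNA. It is placed by a nuclear complex built on Mettl3, the catalytic subunit, Mettl14, which binds the RNA, and Wtap, which holds the complex in nuclear speckles. Fto and Alkbh5 are enzymes that remove methyl groups from adenosine, and proteins with a YTH domain bind the mark and act on the decay, translation and splicing of the transcripts that carry it. In the brain the mark is abundant and is found on many transcripts with synaptic roles. G9a, encoded by Ehmt2, and its partner GLP, encoded by Ehmt1, methylate lysine 9 of histone H3 and act mostly as repressors of transcription.

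Totals of the estimated counts lay between 20.5 M and 43.8 M in the IP libraries of 7 of the 8 5xFAD animals and at 3.98 M in that of vehicle animal 4. The 8 inputs held 20.7 M to 41.8 M. The log2 ratios of vehicle animal 4 had a standard deviation over genes of 1.03, against 0.50 to 0.68 in the other 7 animals. Among 9333 well expressed genes, those with a mean log2 CPM of at least 3 (CPM being the count after each library is scaled to the same total), its ratio stood apart from those of all 3 other vehicle animals at 19.4% of genes, mostly on the low side (1439 low and 374 high), by the gap criterion used for single samples in the closing section. The same share was 0.354 to 0.396% for the other vehicle animals. Vehicle animal 3 stood apart in its input. Ttr, made by the choroid plexus, was at 7032 CPM there and at 31.7 to 158 CPM in the other 7 animals, the summed level of the choroid plexus list was 7937 CPM against 69.3 to 234 CPM, that of the myelin and oligodendrocyte list was 19659 CPM against 4769 to 5651 CPM, and Xist was at 1.29 CPM against 21.4 to 48.0 CPM. Defining markers of hippocampal cells were present in all 8 inputs. Snap25 of neurons was at 6217 to 7637 CPM, Prox1 of dentate granule cells at 34.5 to 93.7 CPM and Wfs1 of CA1 neurons at 37.4 to 74.3 CPM. Mbp of oligodendrocytes was at 358 to 732 CPM. The excess of vehicle animal 3 in the myelin and oligodendrocyte list therefore lay in other genes. Cldn5, of endothelial cells, was low at 0.145 to 0.705 CPM. The summed level of the 17 genes of the endothelial and mural list was 351 to 466 CPM in vehicle and 303 to 405 CPM in MS1262.

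No gene passed the test for a difference in m6A enrichment between MS1262 and vehicle. Of 18300 genes, 0 (0%) had an adjusted p under 0.05 in edgeR's quasi-likelihood test, in which the animal paired each IP with its own input, and the smallest adjusted p was 0.834. At an unadjusted p under 0.05 there were 434 genes (2.37%), of which 284 (1.55%) had a higher ratio in MS1262 and 150 (0.82%) a lower one. The ratios of all 4 MS1262 animals lay above those of all 4 vehicle animals at 264 genes (1.44%) and below them at 142 (0.776%). The split between higher and lower depended on the scaling. With DESeq2's size factors it was 213 against 196, and on log2(TPM + 1) values tested with limma it was 246 against 493, where the median change over all genes moved from 0.05 to -0.05. Since libraries are scaled to each other, the comparison cannot show a change in the total amount of m6A.

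Other treatments of the counts gave few calls. DESeq2 called 2 genes of 18300 (0.0109%), the predicted gene Gm38431 and the pseudogene Rpl27-ps3. Without a filter on low counts edgeR called 42 of 31851 genes (0.132%), 18 higher and 24 lower. Of these 42, 23 were predicted genes, pseudogenes or related sequences, and 13 had IP counts in at most 4 of the 8 animals. The other calls included genes described below that had IP counts in all 8 animals, with edgeR adjusted p-values of 0.012 for Tmem63b, 3.8e-06 for Ppm1f, 0.014 for mt-Nd4l and 0.0085 for Pcdhgb6. Pcdha7 and Entpd4 were called as well, at 5.06e-07 and 1.54e-06. Without the filter every gene took the fitted trend as its own spread. In the filtered table the weight of the trend was equal to 7.46 degrees of freedom.

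The intervals show what sizes of change the data could tell from none. The median 95% interval of a gene reached 0.54 on the log2 scale to either side of its estimate, or 1.46-fold. Among 5108 genes with a mean log2 CPM of at least 5, 5057 (99.0%) had an interval lying wholly within a 2-fold change in either direction, and the median interval reached 1.26-fold. Among 7773 genes with a mean log2 CPM from 1 to 5, 6279 (80.8%) had such an interval. Among 5413 genes under a mean log2 CPM of 1, 69 (1.27%) did, so the intervals of most rare transcripts reached beyond a 2-fold change. When vehicle animal 4 was left out, the median interval of the most abundant genes was 1.17-fold, and 5093 of 5097 lay within a 2-fold change.

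Leaving out vehicle animal 4 also gave no call. Of 18589 genes 0 (0%) passed, with a smallest edgeR adjusted p of 0.214. At an unadjusted p under 0.05 there were 919 genes (4.94%), 523 higher (2.81%) and 396 lower (2.13%), which is more than with all 8 animals although the group was smaller.

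**Figure D1:**
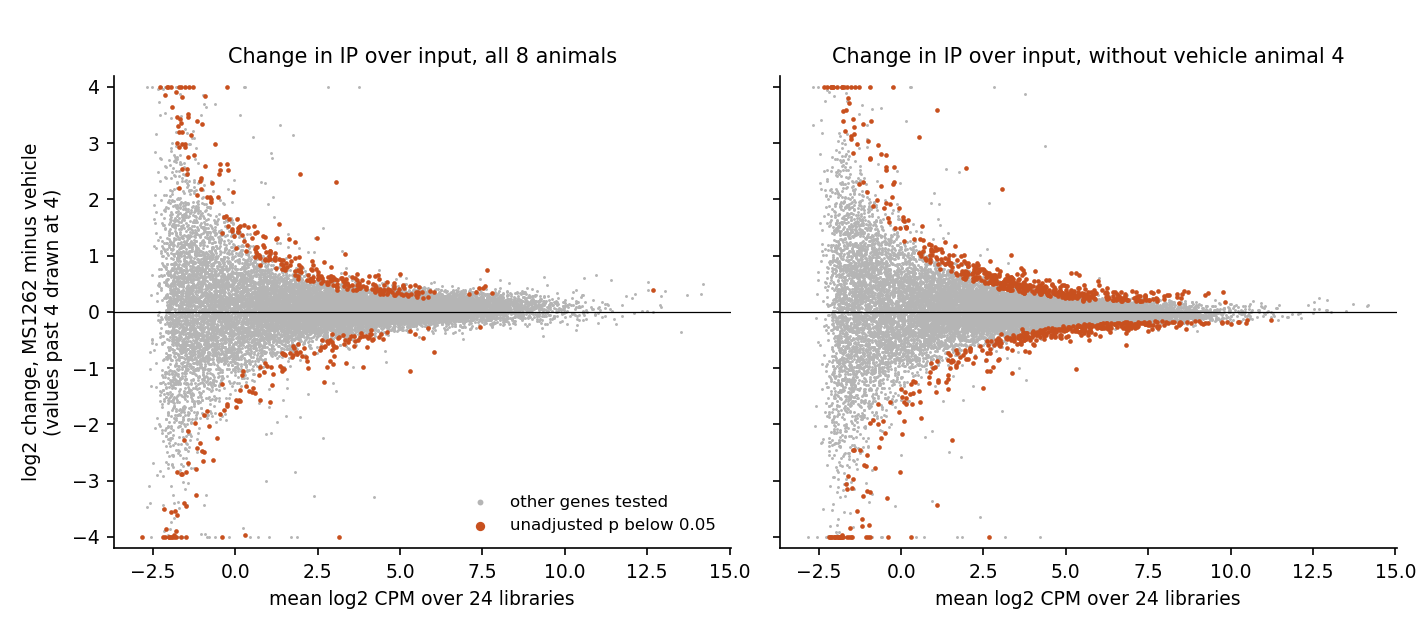
Change in m6A enrichment of each tested gene against its abundance. The y axis is the log2 change in IP over input, MS1262 minus vehicle, and the x axis the mean log2 CPM, with all 8 animals of the 2 groups on the left and without vehicle animal 4 on the right. Genes with an unadjusted p under 0.05 are coloured (434 on the left, 919 on the right), none passed after adjustment, and the cloud narrows as abundance rises.

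For the target of the compound and its partner no difference was found, and the intervals were wide. Ehmt2, on chromosome 17 from 34898463 to 34914073 (GRCm38), had log2 ratios of 0.92, 0.31, 0.22 and 1.60 in vehicle animals 1 to 4 and of 0.63, 0.88, 0.39 and 0.50 in MS1262 animals 1 to 4. The MS1262 values lay inside the vehicle range, and the highest value was that of vehicle animal 4. The fitted difference was -0.17 (SE 0.24, 95% interval -0.68 to 0.34), and without vehicle animal 4 it was 0.10. Ehmt1 had ratios of 0.34, 0.08, 0.09 and 0.62 in vehicle and 0.01, 0.72, 0.06 and -0.17 in MS1262. The groups overlapped, with a difference of -0.13 (95% interval -0.53 to 0.28), and -0.03 without vehicle animal 4. Of the 8 tested genes of the G9a and GLP list 0 passed, 4 had an estimate above 0 and 4 below, and the median was -0.0044 against 0.05 over all genes. Cdyl, a chromodomain protein that binds methylated histone H3 and G9a, had the smallest unadjusted p of that list. Its ratio was -0.67, -0.88, -0.78 and -0.61 in vehicle and -0.76, -0.56, -0.27 and 0.30 in MS1262, a difference of 0.43 (95% interval -0.17 to 1.03).

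The m6A methyltransferase list holds genes of the complex and also Mettl5 and Zcchc4, which are not part of it. None of its 11 genes passed, 7 had estimates above 0 and 4 below, and their median change was 0.04. When vehicle animal 4 was left out, this turned to 3 above and 8 below, with a median of -0.11. Mettl3, on chromosome 14 from 52294841 to 52308741, had log2 ratios of 0.12, -0.12, 0.18 and 0.59 in vehicle and 0.62, 0.25, 0.17 and 0.22 in MS1262. The groups overlapped. Its difference was 0.13 (SE 0.18, 95% interval -0.25 to 0.51), and 0.25 (-0.09 to 0.59) without vehicle animal 4. Mettl14 had 0.50, 0.84, 0.58 and -0.0006 in vehicle against 0.43, 0.29, 0.60 and 0.45 in MS1262, and a difference of -0.06 (95% interval -0.45 to 0.33), or -0.19 (-0.53 to 0.15) without vehicle animal 4. Wtap was under-represented in the IP of every 5xFAD animal, at -0.74, -0.21, -0.37 and -1.44 in vehicle and -0.45, -0.43, -0.86 and -0.52 in MS1262. Its difference was 0.06 with all animals and -0.11 without vehicle animal 4, so its sign depended on that animal. Mettl5 and Zcchc4 methylate adenosines of ribosomal RNA. They had the highest and lowest estimates of the list, 0.40 (95% interval -0.16 to 0.96) and -0.34 (-0.88 to 0.20). With vehicle animal 4 left out these were 0.11 (-0.27 to 0.49) for Mettl5 and -0.51 (-1.002 to -0.02) for Zcchc4.

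Neither demethylase passed. Fto had log2 ratios of 0.90, 0.86, 0.78 and 0.58 in vehicle and 0.47, 1.00, 1.01 and 1.03 in MS1262, where 3 animals lay above every vehicle animal and MS1262 animal 1 below them all. The difference was 0.10 (95% interval -0.28 to 0.48), and 0.04 without vehicle animal 4. Alkbh5 had -0.44, -0.28, -0.18 and -1.39 in vehicle and -0.25, -0.61, -0.74 and -0.49 in MS1262. Its vehicle values spanned the MS1262 values because of vehicle animal 4. The estimate was -0.02 (95% interval -0.45 to 0.40) with all animals and -0.22 (-0.51 to 0.06) without that animal.

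Among the 13 tested reader genes 11 had an estimate above 0 and 2 below, with a median of 0.11, and without vehicle animal 4 it was 5 above and 8 below with a median of -0.06. Ythdf1, Ythdf2 and Ythdf3, the cytoplasmic YTH proteins, were all lower in the IP than in the input. Ythdf1 was the most even, at -0.50, -0.32, -0.50 and -0.35 in vehicle and -0.48, -0.30, -0.52 and -0.31 in MS1262. Its difference was 0.02, with an interval from -0.24 to 0.28. Ythdf2 had -0.91, -0.72, -0.72 and -1.32 in vehicle and -0.51, -1.25, -0.98 and -0.86 in MS1262, a difference of -0.00042 (95% interval -0.39 to 0.39), and -0.12 (-0.42 to 0.19) without vehicle animal 4. Ythdf3 had -0.82, -0.66, -0.64 and -3.27 in vehicle and -0.80, -1.01, -0.93 and -0.83 in MS1262. Vehicle animal 4 set its estimate, which was 0.27 (95% interval -0.48 to 1.02) with that animal and -0.18 (-0.39 to 0.02) without it. Ythdc2, a YTH protein with an RNA helicase domain, was the only gene of the writer, eraser and reader lists with an unadjusted p under 0.05. It had ratios of -0.47, -0.29, -0.64 and -1.78 in vehicle and 0.51, -0.02, -0.11 and -0.36 in MS1262. The groups overlapped at MS1262 animal 4 and vehicle animal 2. The difference was 0.67 (SE 0.24, 95% interval 0.17 to 1.18) and 0.47 (0.12 to 0.81) without vehicle animal 4, with an edgeR adjusted p of 1.

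**Figure D2:**
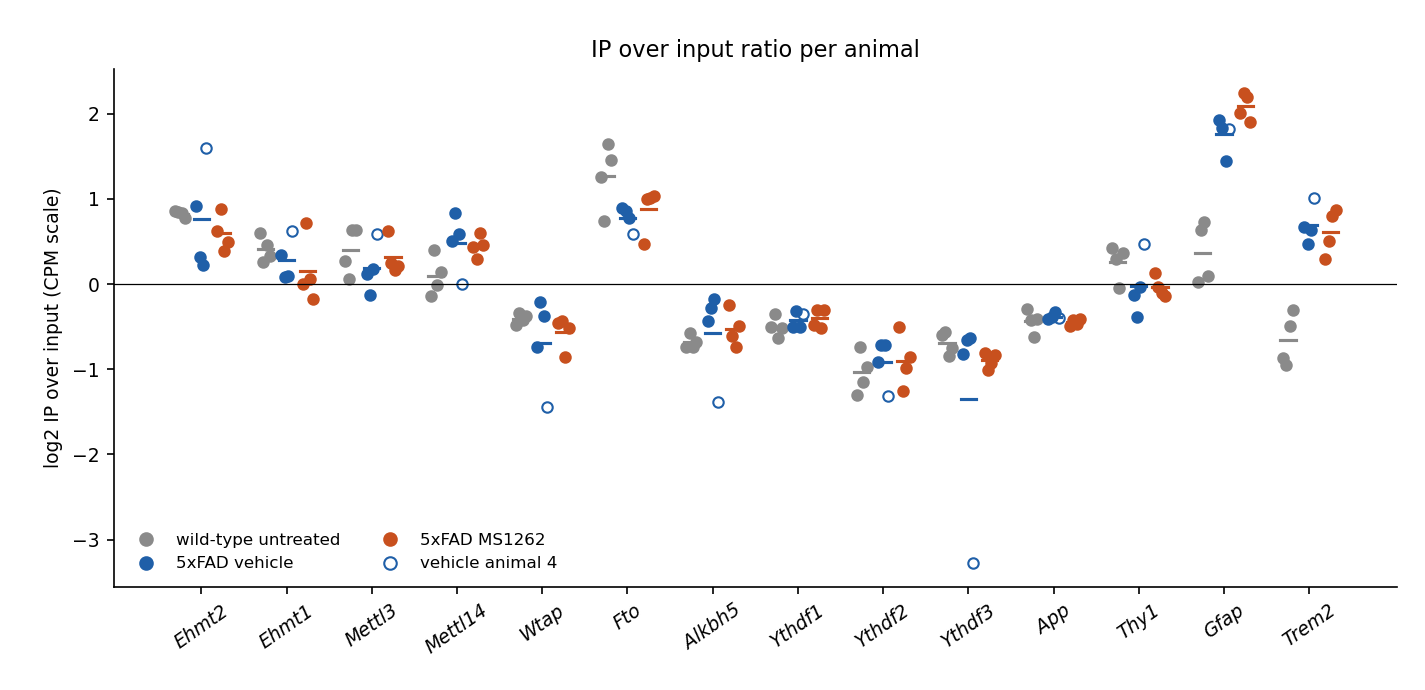
IP over input ratio of 14 genes chosen for their roles, 1 point per animal. The y axis is the log2 ratio of CPM in the IP to CPM in the input, colours give wild-type untreated, 5xFAD vehicle and 5xFAD MS1262 animals, short lines are group means and the open circle is vehicle animal 4. Vehicle and MS1262 points overlap at all 14 genes, while Gfap and Trem2 of both 5xFAD groups lie above the wild-type points.

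App, the mouse precursor of amyloid beta, had the narrowest interval of these genes. Its log2 ratios were -0.41, -0.39, -0.33 and -0.40 in vehicle and -0.49, -0.43, -0.47 and -0.40 in MS1262. The groups overlapped at MS1262 animal 4 and vehicle animal 1, and the difference was -0.07 (SE 0.11, 95% interval -0.30 to 0.17). Reads of the human APP transgene that align to mouse App would be counted with it, and their share was not tested. Thy1, whose promoter drives the transgenes, had -0.12, -0.39, -0.03 and 0.47 in vehicle and 0.13, -0.03, -0.11 and -0.14 in MS1262, a difference of -0.02 with all animals and 0.14 without vehicle animal 4. Its mean input level was 512 CPM in vehicle and 580 CPM in MS1262, against 105 CPM in wild type. Any reads of the transgenes that align to Thy1 would be counted with it, and their share was not tested. Bcl2l1 encodes Bcl-xL, a protein that restrains apoptosis, and it was strongly enriched in every animal. Its ratios were 3.06, 2.82, 2.53 and 2.47 in vehicle and 2.54, 3.12, 2.98 and 3.03 in MS1262. The difference was 0.19 (95% interval -0.21 to 0.59), 0.10 without vehicle animal 4 and -0.10 on the log2(TPM + 1) scale.

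Gfap and Trem2 show how the same measure behaved where 5xFAD and wild-type animals differed. The wild-type animals had received no vehicle, so genotype and vehicle cannot be told apart in that difference. Gfap is the intermediate filament of reactive astrocytes, on chromosome 11 from 102887336 to 102897200. Its log2 ratios were 1.93, 1.84, 1.45 and 1.82 in vehicle, 2.00, 2.25, 2.19 and 1.91 in MS1262 and 0.02, 0.63, 0.72 and 0.10 in wild-type animals. All 8 5xFAD animals lay above the wild-type animals, and MS1262 and vehicle overlapped at MS1262 animal 4. In the same model the vehicle animals exceeded wild type by 1.39 (SE 0.17, edgeR adjusted p = 0.0021), and the MS1262 animals exceeded vehicle by 0.33 (SE 0.17, 95% interval -0.03 to 0.68, edgeR adjusted p = 1). Both comparisons share the vehicle animals. Without vehicle animal 4 the Gfap difference between MS1262 and vehicle was 0.35 (95% interval 0.04 to 0.66, edgeR adjusted p = 0.953). Trem2, a receptor of microglia for lipids and lipoproteins, had 0.67, 0.48, 0.64 and 1.01 in vehicle, 0.29, 0.51, 0.79 and 0.87 in MS1262 and -0.87, -0.95, -0.50 and -0.31 in wild type. Vehicle exceeded wild type by 1.37 (edgeR adjusted p = 0.0055), and MS1262 differed from vehicle by -0.08 (95% interval -0.47 to 0.31), or by 0.02 without vehicle animal 4. Cst7, a cysteine protease inhibitor of plaque-associated microglia, had -0.05, -0.15, -0.13 and 0.37 in vehicle and 0.48, 0.06, 0.40 and 0.03 in MS1262. The difference was 0.24 (95% interval -0.23 to 0.70), or 0.35 (-0.04 to 0.73) without vehicle animal 4.

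The genes with the smallest p-values are described next, although none passed. Pef1, a calcium-binding protein of the penta-EF-hand family, on chromosome 4 from 130107556 to 130128134, had log2 ratios of 0.11, -0.05, -0.04 and 0.22 in vehicle and 0.68, 0.58, 0.48 and 0.51 in MS1262. All 4 MS1262 animals lay above all vehicle animals. The difference was 0.51 (SE 0.13, 95% interval 0.24 to 0.77), or 1.42-fold, and 0.55 (0.31 to 0.80) without vehicle animal 4, with an edgeR adjusted p of 1. Its input level was 26.1 ± 3.08 CPM in vehicle and 25.3 ± 3.62 CPM in MS1262, and its IP level was 27.3 ± 4.91 and 37.7 ± 7.86 CPM (SD, n = 4), so the estimate rested on the IP side. A peak called by the authors lay over it in 1 vehicle and 3 MS1262 animals. Bin3, a BAR-domain protein that binds membranes, had 0.32, 0.07, 0.14 and 0.69 in vehicle and 0.90, 1.03, 1.22 and 1.04 in MS1262. These did not overlap either, and the difference was 0.76 (95% interval 0.30 to 1.22) at input levels of 4.37 and 3.24 CPM. Klhl1, an actin-binding protein of the kelch family, had a difference of 1.29 (0.48 to 2.097), and Snx11, a sorting nexin, one of 1.24 (0.44 to 2.04). The groups overlapped at both. No peak of the authors lay over Bin3, Klhl1 or Snx11 in any animal of either group.

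On the lower side Tmem63b, a mechanosensitive cation channel on chromosome 17 from 45660172 to 45686343, had ratios of 1.98, 2.43, 2.99 and 3.18 in vehicle and 1.03, 1.42, 1.71 and 1.402 in MS1262. Every MS1262 value lay under every vehicle value and around the wild-type mean of 1.45 ± 0.17 (SD, n = 4). The difference was -1.24 (SE 0.26, 95% interval -1.80 to -0.69), and -1.05 without vehicle animal 4. Its input level was 1.91 ± 0.403 CPM in vehicle and 3.70 ± 0.730 CPM in MS1262 and its IP level 12.3 ± 4.15 and 9.59 ± 0.285 CPM (SD, n = 4), so both libraries contributed. In the comparison that shares these vehicle animals, vehicle exceeded wild type by 1.17 (edgeR adjusted p = 0.0445). Ppm1f, a protein phosphatase that acts on calmodulin-dependent kinases, had 1.43, 1.70, 1.74 and 1.70 in vehicle and 1.12, 0.04, 1.33 and -0.28 in MS1262. The groups did not overlap, and MS1262 animals 2 and 4 were far under the other 2. The difference was -1.05 (95% interval -1.71 to -0.40), and the authors' peaks covered the gene in 4 vehicle and 2 MS1262 animals. Pofut2, an O-fucosyltransferase, had 2.54, 2.21, 2.55 and 1.80 in vehicle and 1.27, 1.55, 1.83 and 1.72 in MS1262, which overlap at vehicle animal 4. Its difference was -0.68 (95% interval -1.13 to -0.23), beside a vehicle excess over wild type of 1.37 (edgeR adjusted p = 0.00595). Slc25a15, a mitochondrial ornithine carrier, had a difference of -0.91 (-1.48 to -0.34), and Efcab5, an EF-hand protein, one of -0.87 (-1.45 to -0.30). The authors' peaks lay over Pofut2 in 0 vehicle animals and 1 MS1262 animal. None lay over Tmem63b, Slc25a15 or Efcab5 in any animal of either group.

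Several of the genes with the smallest p-values had few counts, and for them the counts say more than a fitted ratio. Xlr4a had no IP count in any vehicle animal, beside 3, 18, 3 and 15 input counts, and 3, 16, 11 and 6 IP counts beside 0, 0, 16 and 7 input counts in MS1262. Oxgr1, a receptor for oxoglutarate, had 41, 17, 10 and 0 IP counts in vehicle with none in the input. In MS1262 it had 7, 6, 9 and 13 in the IP and 3, 2, 6 and 10 in the input. Both patterns rest on zeros in one library of a pair, so no fold is given. Pcdhgb6 is a clustered protocadherin, one of a cluster of related cell adhesion genes that share their last exons. It had 178, 28, 42 and 10 IP counts and 0, 0, 1 and 1 input counts in vehicle. In MS1262 it had 89, 104, 52 and 43 IP counts and 7, 14, 9 and 7 input counts. Its neighbour Pcdhgb4 went the other way, with 42, 24, 11 and 3 IP counts beside 16, 10, 14 and 28 input counts in vehicle, and 57, 26, 44 and 58 beside 13, 4, 3 and 0 in MS1262. How reads were divided among these genes makes both uncertain. Hsf3, Matn4, Teddm3 and Fcna were also among the smallest p-values at low counts.

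**Figure D3:**
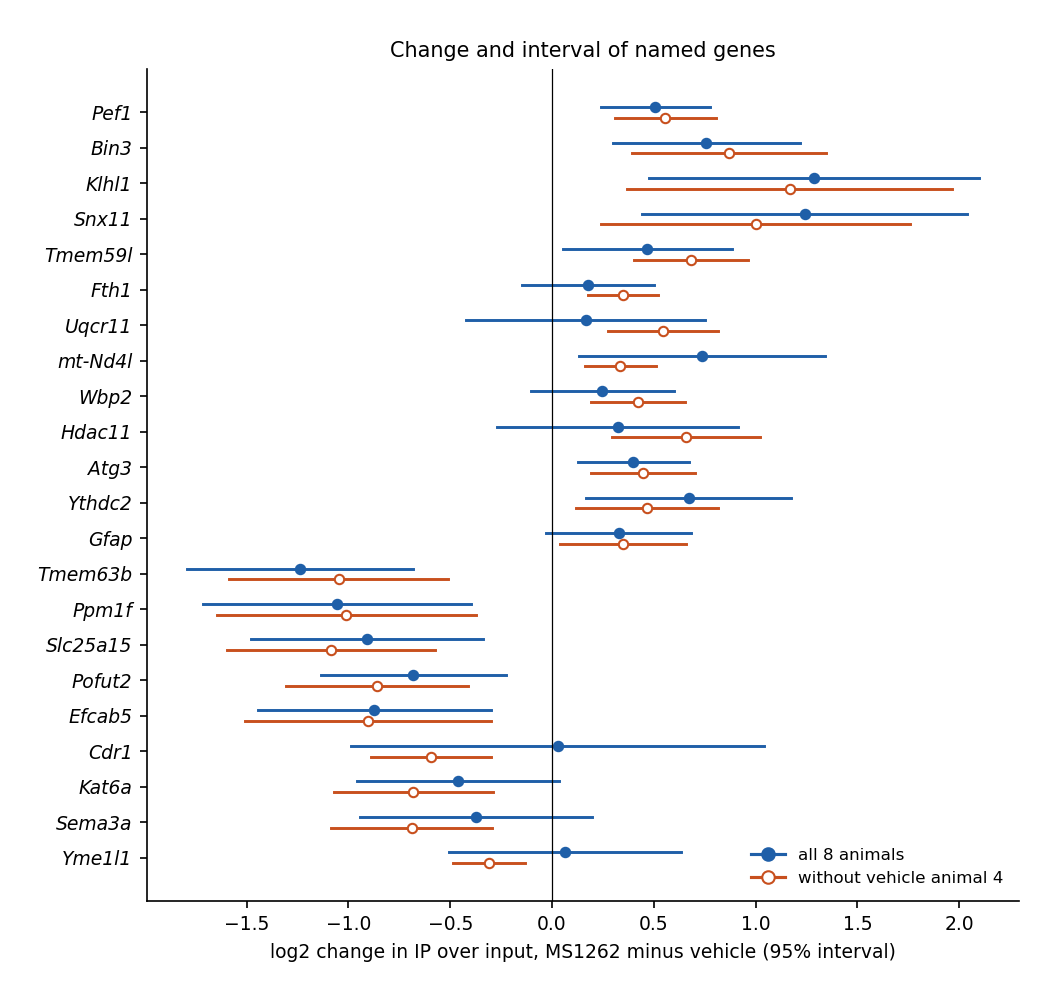
Change in m6A enrichment of 22 named genes with its 95% interval. The x axis is the log2 change in IP over input, MS1262 minus vehicle, and each gene has an estimate with all 8 animals (filled) and without vehicle animal 4 (open). Intervals of Fth1, Uqcr11, Wbp2, Hdac11, Gfap, Cdr1, Kat6a, Sema3a and Yme1l1 hold 0 with all 8 animals and exclude it without vehicle animal 4. Those of the other genes drawn, Pef1, Bin3, Atg3 and Tmem63b among them, exclude 0 in both. No adjusted p passed.

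When vehicle animal 4 was left out, other genes came to the front, and each shows where that animal sat. Tmem59l, a neuronal membrane protein of the secretory pathway, on chromosome 8 from 70483855 to 70487348, had log2 ratios of 0.64, 0.59, 0.88 and 1.60 in vehicle and 1.49, 1.68, 1.25 and 1.11 in MS1262. The MS1262 values lay above those of vehicle animals 1 to 3, with vehicle animal 4 among them. The difference was 0.47 (95% interval 0.05 to 0.88) with all animals and 0.68 (0.40 to 0.96) without it, at an edgeR adjusted p of 0.65. Fth1, the ferritin heavy chain, which stores iron, had 0.66, 0.60, 0.53 and 1.29 in vehicle and 1.05, 0.96, 0.97 and 0.81 in MS1262. Its difference was 0.18 (-0.15 to 0.50) with all animals and 0.35 (0.18 to 0.52) without vehicle animal 4, and the vehicle animals exceeded wild type by 0.86 (edgeR adjusted p = 0.0142). Uqcr11, a small subunit of respiratory complex III, had -0.35, -0.71, -0.40 and 1.09 in vehicle and 0.33, 0.11, -0.03 and -0.15 in MS1262. Here vehicle animal 4 was the highest of all 8 animals, and the difference was 0.17 with it and 0.55 without it. Hdac11, a deacylase, had 0.07, -0.13, 0.08 and 1.43 in vehicle and 1.135, 0.86, 0.48 and 0.21 in MS1262, a difference of 0.32 with all animals and 0.66 without. Wbp2, which binds WW domains, had differences of 0.25 and 0.42.

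Cdr1 and Yme1l1 showed the opposite. Cdr1 had ratios of 0.05, 0.27, 0.23 and -3.04 in vehicle and -0.62, -0.56, -0.47 and -0.0036 in MS1262. Vehicle animals 1 to 3 were above all MS1262 animals and vehicle animal 4 far below them. The difference was 0.03 (95% interval -0.99 to 1.04) with all animals and -0.59 (-0.89 to -0.30) without that animal. Cdr1 lies on the strand opposite to the circular RNA Cdr1as, which is abundant in brain, and these counts cannot separate them. Yme1l1, a protease of the mitochondrial inner membrane, had -0.17, -0.06, -0.04 and -1.75 in vehicle and -0.36, -0.40, -0.50 and -0.34 in MS1262, and its difference was 0.06 with all animals and -0.31 without vehicle animal 4. Kat6a, a histone acetyltransferase, and Sema3a, a secreted guidance cue of axons, had differences of -0.46 and -0.37 with all animals and -0.68 and -0.69 without it. Entpd4, which has a near-identical copy, was also among these genes, and its input counts were 0 in some animals of each group.

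Across 38 gene lists with 847 tested genes, 0 genes passed. At an unadjusted p under 0.05 there were 15 list genes with a higher ratio in MS1262 (1.77%, against 1.55% of all genes) and 3 with a lower one (0.354%, against 0.82%). With vehicle animal 4 left out these were 37 and 12 list genes, where 2.81% of all genes were higher and 2.13% lower. The list medians ran from -0.05 to 0.50, around an all-gene median of 0.05 with quartiles of -0.12 and 0.23. Of the 38 medians 15 were above and 23 below that of all genes. With that group reduced to vehicle animals 1 to 3 the medians ran from -0.13 to 0.14 around 0.01.

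The highest median, 0.50, belonged to the transcripts encoded in the mitochondrial genome, of which 15 of 15 had an estimate above 0. The list's median log2 ratio was -1.37, -1.29, -1.21 and -2.65 in vehicle animals 1 to 4 and -0.89, -1.21, -1.28 and -1.12 in MS1262. Vehicle animal 4 was lowest by more than 1 log2 unit, and without it the median change was 0.12, with 13 of 15 above 0. With all animals, 2 of the 15 genes were higher at an unadjusted p under 0.05, as were 1.55% of all genes. The groups did not overlap at either. mt-Nd4l, a subunit of respiratory complex I, had ratios of -0.67, -0.74, -0.73 and -2.50 in vehicle and -0.43, -0.30, -0.39 and -0.37 in MS1262. Its difference was 0.74 (95% interval 0.13 to 1.34) with all animals and 0.34 (0.16 to 0.51) without vehicle animal 4. mt-Co2, a subunit of cytochrome c oxidase, had -1.13, -1.09, -0.996 and -1.59 in vehicle and -0.65, -0.89, -0.92 and -0.80 in MS1262, with differences of 0.38 (0.02 to 0.74) and 0.25 (-0.03 to 0.54).

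For genes of the cytoplasmic ribosome the direction depended on that animal. Among 79 ribosomal protein genes 26 had an estimate above 0 and 53 below, with a median of -0.05. The list's median ratio was -0.73, -0.82, -0.47 and 0.01 in vehicle and -0.34, -0.66, -0.60 and -0.53 in MS1262. Without vehicle animal 4, the highest of the 8 animals, 70 were above 0 and 9 below, the median was 0.11 and 6 genes were higher at an unadjusted p under 0.05, as were 2.81% of all genes in that fit. The 32 nuclear genes of oxidative phosphorylation went from 15 above and 17 below to 27 above and 5 below, with medians of -0.02 and 0.09 and 5 genes higher at an unadjusted p under 0.05 without vehicle animal 4. With all animals Uqcrb, a subunit of respiratory complex III, was the one gene of this list at an unadjusted p under 0.05. It had ratios of -0.41, -0.32, -0.29 and -1.30 in vehicle and -0.06, -0.18, -0.13 and -0.17 in MS1262. The groups did not overlap, and the difference was 0.43 (95% interval 0.05 to 0.82) with all animals and 0.21 (0.04 to 0.38) without vehicle animal 4.

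With all animals, glial lists had medians within the quartiles of all genes, -0.12 and 0.23, where the all-gene median was 0.05. Of 30 genes of the disease-associated microglia list, the program of plaque-associated microglia, 23 had estimates above 0 and 7 below, with a median of 0.09. Without vehicle animal 4 it was 25 and 5 with a median of 0.12, beside an all-gene median of 0.01. In that fit 5 of the 30 genes were higher at an unadjusted p under 0.05, as were 2.81% of all genes. On the log2(TPM + 1) scale the median of this list was -0.02, beside an all-gene median of -0.05. Of 16 homeostatic microglia genes 11 were above 0, with a median of 0.14, which was 0.04 without vehicle animal 4. In these bulk libraries fewer cells of a type and less RNA per cell cannot be told apart. Plcg2, a phospholipase of microglia that carries risk variants for Alzheimer's disease, had 0.92, 0.64, -0.0045 and 0.68 in vehicle and -0.28, 0.65, -0.44 and -0.59 in MS1262, a difference of -0.74 (95% interval -1.46 to -0.03), or -0.72 (-1.48 to 0.05) without vehicle animal 4, at input levels of 1.96 and 3.74 CPM.

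The smallest unadjusted p of the autophagy list belonged to Atg3, the E2-like enzyme that couples LC3 to lipid in autophagy, on chromosome 16 from 45158829 to 45188538. It had ratios of -0.53, -0.59, -0.49 and -0.31 in vehicle and 0.02, -0.21, 0.07 and -0.23 in MS1262. The groups did not overlap, and vehicle animal 4 lay nearest to the MS1262 animals. The difference was 0.40 (SE 0.13, 95% interval 0.13 to 0.67), and 0.45 (0.19 to 0.70) without that animal, with an edgeR adjusted p of 1. The autophagy list as a whole had 21 of 32 estimates above 0 and a median of 0.0081. Of the 32 genes 2, Atg3 and Atg10, were higher at an unadjusted p under 0.05, as were 1.55% of all genes. Atg10, another E2-like enzyme of the pathway, was at 0.37 (95% interval 0.0022 to 0.75), and 0.27 (-0.06 to 0.60) without vehicle animal 4. In the list of endoplasmic reticulum chaperones and stress, 17 of 21 were above 0 with all animals, and 11 of 21 without vehicle animal 4, with medians of 0.06 and 0.0030. Ern1, the stress sensor IRE1, had a difference of 0.58 (95% interval 0.02 to 1.135) with all animals and 0.56 (-0.02 to 1.138) without that animal. Pdia3, a disulfide isomerase, had 0.31 (0.0066 to 0.61) and 0.19 (-0.02 to 0.39). Psmd10, a chaperone of proteasome assembly, had one of 0.16 (-0.07 to 0.39), with a list median of -0.01 over 39 proteasome genes, which was 0.06 without vehicle animal 4. Ide, the insulin-degrading enzyme, which also cleaves amyloid beta, had one of 0.35 (0.0032 to 0.70) with all animals and 0.18 (-0.03 to 0.39) without that animal. The median of the 21 genes of amyloid precursor processing was -0.0075 and 0.06.

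Among neuronal lists the immediate early genes, which neuronal activity induces, had 9 of 21 estimates above 0 and a median of -0.03, and -0.13 without vehicle animal 4. Nr4a1 and Nr4a2, related orphan nuclear receptors, lay on opposite sides. Nr4a1 had ratios of 1.01, 0.87, 0.33 and 1.12 in vehicle and 0.13, 0.29, 0.49 and 0.51 in MS1262, which overlap at vehicle animal 3. Its difference was -0.48 (SE 0.19, 95% interval -0.89 to -0.08), and -0.39 (-0.79 to 0.02) without vehicle animal 4. Nr4a2 had -0.65, -0.65, -0.59 and -1.39 in vehicle and -0.13, -0.29, -0.50 and -0.55 in MS1262. The groups did not overlap at Nr4a2, where the difference was 0.41 (95% interval 0.05 to 0.77). It was 0.26 (-0.0082 to 0.54) without vehicle animal 4 and -0.13 on the log2(TPM + 1) scale. Kcna4, a voltage-gated potassium channel, had a difference of 0.47 (95% interval 0.0049 to 0.94) with all animals and 0.29 (-0.07 to 0.65) without vehicle animal 4. The 33 genes of the glutamate receptor list had a median of 0.04, the 31 presynaptic genes 0.0088, and the 27 potassium channel genes 0.10, which were 0.05, -0.01 and -0.01 without vehicle animal 4. Of the 57 clustered protocadherins 33 were above 0 and 24 below, with a median of 0.06, and without vehicle animal 4 this turned to 19 above and 38 below, with a median of -0.07.

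**Figure D4:**
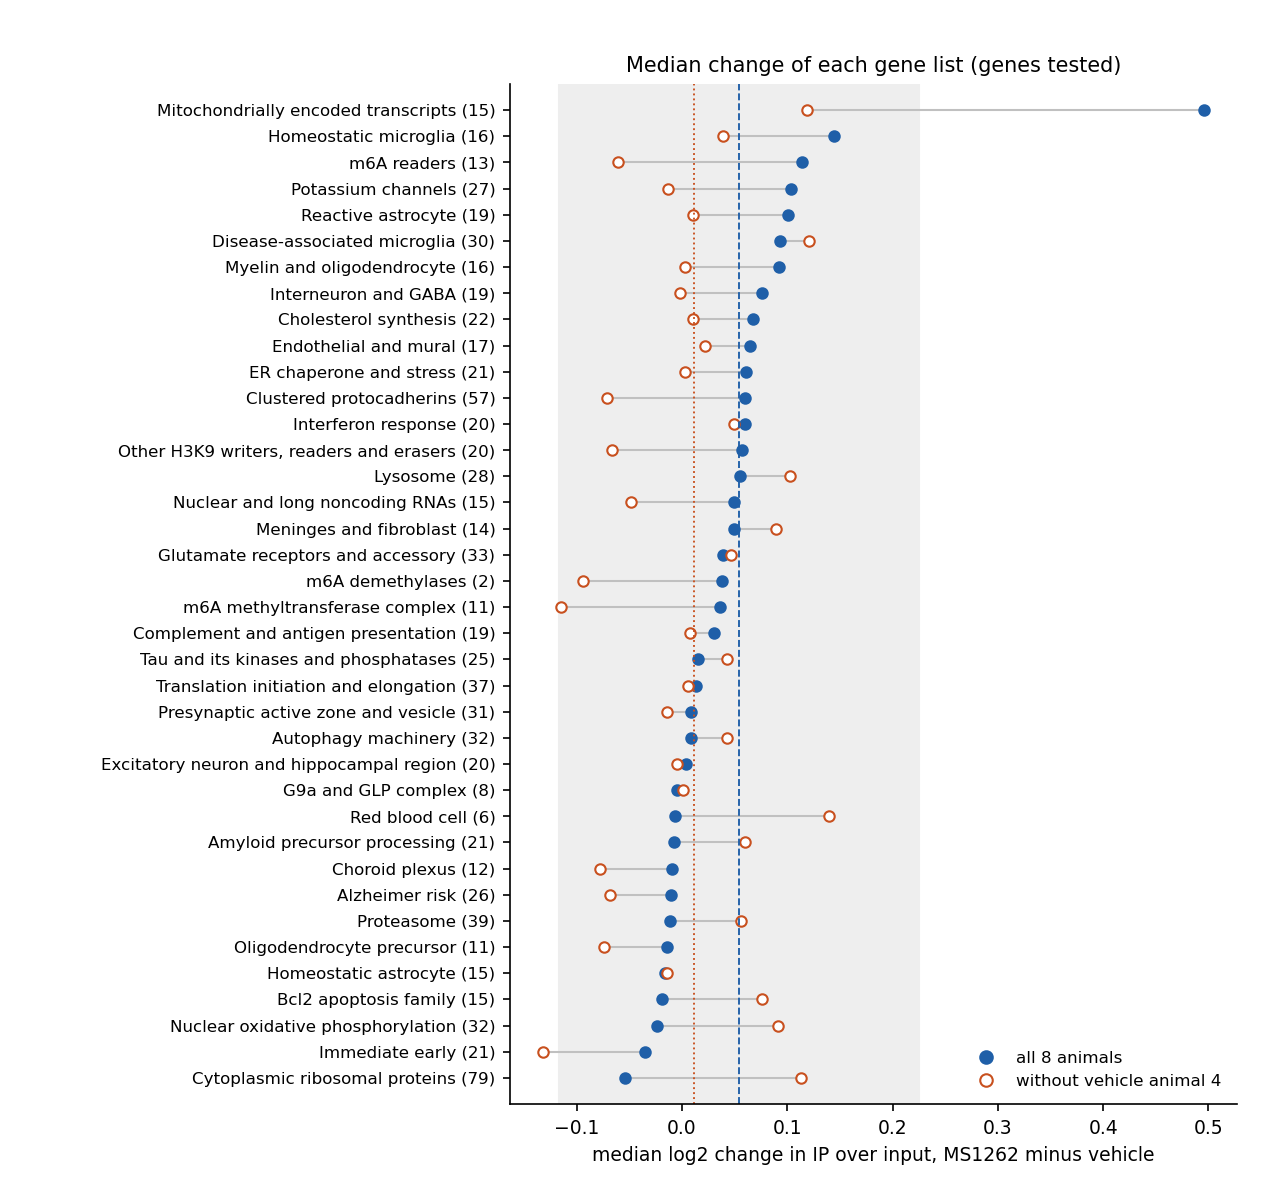
Median change in m6A enrichment of 38 gene lists. The x axis is the median log2 change in IP over input, MS1262 minus vehicle, with all 8 animals (filled) and without vehicle animal 4 (open), with the number of tested genes beside each name, the grey band from the lower to the upper quartile of all genes (-0.12 to 0.23) and vertical lines at the all-gene medians. The mitochondrially encoded list is the one filled point beyond the band, at 0.50, and its open point is at 0.12.

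By gene length vehicle animal 4 stood apart from the rest. This was looked at after the values were seen. Relative length was taken from the ratio of estimated count to TPM in the inputs, and the 9333 well expressed genes were divided into 5 classes of equal size. The median log2 ratio of the shortest class minus that of the longest was -0.07, -0.11, -0.04 and 0.80 in vehicle animals 1 to 4, 0.12, 0.03, 0.01 and 0.02 in MS1262 and -0.22, -0.18, -0.23 and -0.08 in wild type. Vehicle animal 4 was far above all others. The 3 other vehicle animals were below 0 and all 4 MS1262 animals above it. With all animals the MS1262 mean was 0.04 ± 0.05 (SD, n = 4) and the vehicle mean 0.14 ± 0.44 (SD, n = 4), and a two-sided exact permutation test gave p = 1. Without vehicle animal 4 the vehicle mean was -0.07 ± 0.03 (SD, n = 3) and the difference 0.12, against -0.10 with it. This is given with no test, since the pattern was seen first and appears only once that animal is left out.

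The same split showed in the changes. With all animals the median change by class, from shortest to longest, was 0.03, 0.05, 0.06, 0.06 and 0.07. Without vehicle animal 4 it was 0.08, 0.02, -0.0057, -0.04 and -0.07. Of 1867 genes in the shortest class, 126 were then higher and 11 lower at an unadjusted p under 0.05. In the longest class, also of 1867 genes, 25 were higher and 109 lower. Over all genes of that fit 2.81% were higher and 2.13% lower. Ribosomal protein genes and small respiratory subunits such as Uqcr11 and Uqcrb encode short transcripts. The part of length in their values was not tested. By contrast, transcripts grouped by their ratio in wild-type animals differed little. With all animals the median change was 0.04 where the wild-type log2 ratio was under -1 (1189 genes), 0.07 from -1 to 0 (8159 genes), 0.04 from 0 to 1 (7486 genes) and -0.0029 above 1 (1466 genes). Without vehicle animal 4 the same medians lay between 0.0016 and 0.02.

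**Figure D5:**
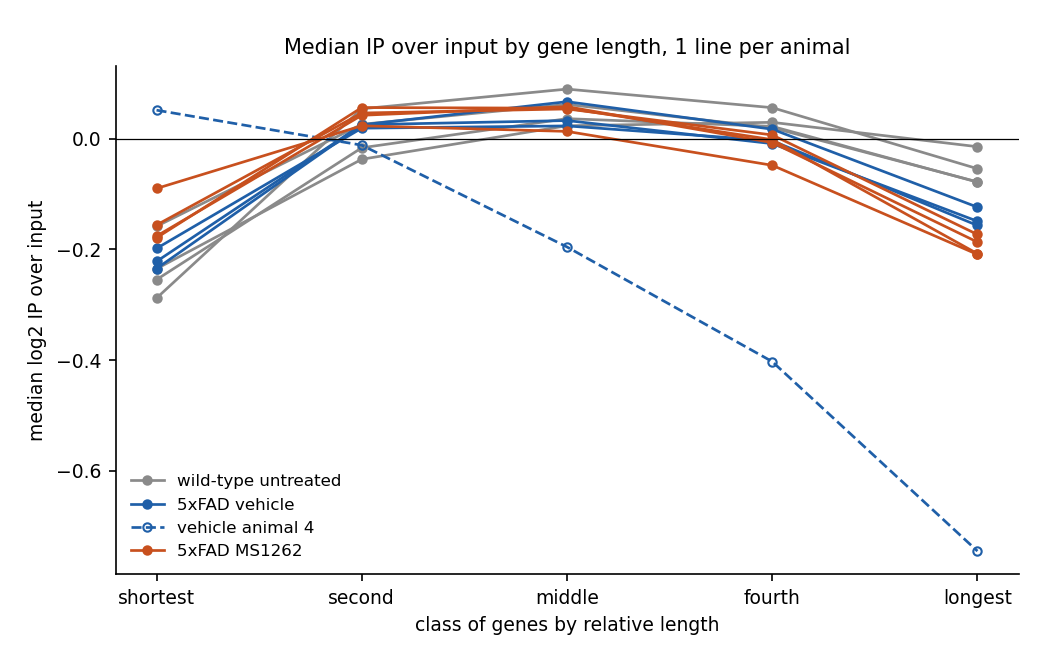
Median IP over input ratio by gene length, 1 line per animal. The x axis orders 5 classes of 9333 well expressed genes from shortest to longest, and the y axis is the median log2 ratio of CPM in the IP to CPM in the input. The dashed line of vehicle animal 4 falls from 0.05 in the shortest class to -0.74 in the longest. The lines of the other 7 5xFAD animals are arched, low at both ends, and lie between -0.23 and 0.07.

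Neither side of the ratio differed by the test when taken alone. In the IP libraries 0 of 16941 genes passed (0%, smallest edgeR adjusted p = 0.995), with 599 (3.54%) at an unadjusted p under 0.05, 186 higher and 413 lower. In the inputs, which measure expression, 0 of 17693 passed (0%, smallest edgeR adjusted p = 0.848), with 1003 (5.67%) at an unadjusted p under 0.05, 385 higher and 618 lower. Without vehicle animal 4 the IP comparison gave 0 of 17476 (0%) and 1306 genes (7.47%) at an unadjusted p under 0.05. The input comparison then gave 0 of 18056 (0%) and 849 (4.7%). The input of vehicle animal 4 was not shallow.

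The genes with smaller p-values had lower medians of length and abundance than all tested genes. The 284 genes with a higher ratio at an unadjusted p under 0.05 had a median relative length of 0.873 and the 150 with a lower ratio 0.895, against 0.977 over all tested genes. Their median input levels were 3.92 and 2.74 CPM against 7.91 CPM. A peak of the authors at a q of at most 0.05 lay, in at least 3 of 4 animals of either group, over 11.5% of the 252 genes with a higher ratio and a RefSeq position, 6.15% of the 130 with a lower one and 14.5% of all 16881. Peaks had been called in each animal. Their number was 6026, 3446, 4104 and 6202 in vehicle animals 1 to 4 and 4012, 4850, 5212 and 5642 in MS1262, so the groups overlapped, and the highest number belonged to the animal with the shallowest IP library.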

How the data were processed

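IP and input libraries of 4 animals per group came from poly(A) RNA of the hippocampus, with groups taken from the sample labels. Per the submitters' processing notes, the tools included MACS2 2.1.2, Salmon 1.4.0, STAR 2.7.6a and Trimmomatic 0.32, with the build GRCm38/mm10. The values analysed were estimated counts per gene (expected counts) and TPM, both deposited by the authors for each library. The authors also deposited peak lists per animal with MACS2 fold enrichment and −log10 q-values, from which peaks with a q-value of at most 0.05 were kept. Estimated counts were rounded, 8.62% of the values not being whole. None of the 55291 lines lacked a gene name.

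Genes with enough counts (edgeR's filter, minimum count 10) were scaled by TMM and fitted with edgeR 4.0.16 in R 4.3.3 over all 24 libraries, with the animal as a block and the difference of IP over input between groups tested by quasi-likelihood, Benjamini-Hochberg adjusted over all genes. Per-animal ratios are log2 CPM with a pseudocount of 0.5. Intervals cover the fitted spread between animals. PCR reads without molecular identifiers are not independent molecules. The labels do not say how animals were housed or treated together, so p-values measure the spread between these samples. Alternatives used DESeq2 1.42.0 and limma 3.58.1 on log2(TPM + 1) and log2(TPM + 0.1), no filter, a minimum mean of 5 CPM, the 16 5xFAD libraries alone, no animal block, a replicate block and each animal left out. A fit without vehicle animals 3 and 4 and one with the length trend removed were added after seeing the data. The main enrichment fit was also run on simulated counts, and no result of that run is given here.

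Named genes were up to 8 per direction of smallest p with all animals and without vehicle animal 4, passing over predicted genes and pseudogenes, a set of genes with known roles, and up to 4 genes of smallest p per list. A few genes that the rule names are not reported here. The members, lists and tests were chosen with earlier results of these data known. Positions are from RefSeq for GRCm38.p6, where 38990 of 55291 gene names matched.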

Additional observations from a re-analysis of the deposited data

Results flagged for a closer look

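Within each group of 4 animals a value was listed when its gap to the nearest other animal was large against the whole range of the group. Chance lists about 1 in 20 groups. In vehicle animal 4 the log2 IP over input ratio stood apart at mt-Nd4l (-2.50, nearest -0.74), Hdac11 (1.43, nearest 0.08), Cdr1 (-3.04, nearest 0.05), Sema3a (-1.19, nearest 0.08), Yme1l1 (-1.75, nearest -0.17), Ythdf3 (-3.27, nearest -0.82), Uqcrb (-1.30, nearest -0.41), Nr4a2 (-1.39, nearest -0.65) and Pdia3 (-0.54, nearest -0.06). Its median over the m6A reader list was -0.85 (nearest -0.37), that over mitochondrially encoded transcripts -2.65 (nearest -1.37) and that over the lysosome list 0.38 (nearest 0.21). Its median ratio of the shortest minus that of the longest genes was 0.80 (nearest -0.04). In vehicle animal 3 the input level of Ttr was 7032 CPM (nearest 68.2 CPM). Ppm1f of vehicle animal 1 had a log2 ratio of 1.43 (nearest 1.70).

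In MS1262 animal 1 the log2 ratio stood apart at Fto (0.47, nearest 1.00) and Pdia3 (0.34, nearest 0.12), the list median of nuclear oxidative phosphorylation was -0.19 (nearest -0.37) and that difference between the shortest and longest genes was 0.12 (nearest 0.03). In MS1262 animal 2 it stood apart at Hsf3 (-0.075, nearest 0.82) and Entpd4 (9.27, nearest 1.32, with an input count of 0). In MS1262 animal 3 Pcdha7 had a ratio of 7.44 (nearest 2.04) and Ttr an input level of 158 CPM (nearest 47.7 CPM). In MS1262 animal 4 it stood apart at Matn4 (0.14, nearest 2.06) and Atg10 (-0.27, nearest -0.0063).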

How the results depend on the processing

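The count of genes called for m6A enrichment was 0 with DESeq2's size factors in edgeR, a mean of at least 5 CPM, the 16 libraries of 5xFAD animals alone, no animal block, both TPM scales, each of 8 animals left out, vehicle animals 3 and 4 left out together and the length trend removed. It was 2 with DESeq2, 42 without a filter and 1 (Pgk1-rs7) with a replicate block. The labels number the animals but do not say that same-numbered animals of different groups belong together, so no stated design lies behind the block. Deviations of same-numbered vehicle and MS1262 animals from their group means correlated at -0.195, -0.252, -0.0047 and -0.069. Between wild-type and vehicle animals the values were 0.121, 0.133, -0.144 and 0.051, and between wild-type and MS1262 animals 0.0035, -0.221, 0.102 and 0.096. Such values cannot show whether animals were paired. In the gene lists 5 genes were called without a filter. For IP levels DESeq2 called 6 genes, and leaving out 1 animal gave 0 to 1 (Prune2 without vehicle animal 1, Rhobtb3 without 2, Rps7-ps3 without 3). For expression leaving out 1 animal gave 0 to 2 (F13a1 and Meg3 without vehicle animal 2, Rps7-ps3 without 3).

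Of 65 genes 50 kept the sign of their estimate under each of the other settings that tested them (1218 pairs of gene and setting over 19 settings), and 15 did not in some, 7 of them without vehicle animal 4. With 1 animal left out the log2 estimates that changed sign ran from -0.036 to 0.55 for Uqcr11, -0.59 to 0.31 for Cdr1, -0.31 to 0.22 for Yme1l1, -0.34 to 0.10 for Ehmt2, -0.19 to 0.060 for Mettl14, -0.11 to 0.21 for Wtap, -0.22 to 0.10 for Alkbh5, -0.01 to 0.061 for Ythdf1, -0.15 to 0.12 for Ythdf2, -0.18 to 0.48 for Ythdf3, -0.14 to 0.14 for Thy1 and -0.16 to 0.025 for Trem2. Without vehicle animals 3 and 4 the sign changed for Cdr1 (-0.57), Yme1l1 (-0.28), Wtap (-0.078), Ythdf3 (-0.15), Thy1 (0.22), Trem2 (0.043) and Bcl2l1 (-0.043). On log2(TPM + 1) and log2(TPM + 0.1), where the all-gene median itself moved from 0.05 to -0.05 and -0.06, it changed for Yme1l1 (-0.030 and -0.026), Fto (-0.038 and -0.038), Alkbh5 (0.040 and 0.056), Ythdf1 (-0.085 and -0.094), Bcl2l1 (-0.098 and -0.089) and Nr4a2 (-0.131 and -0.128). Without the animal block it changed for Uqcr11 (-0.17), Cdr1 (-0.051), Yme1l1 (-0.061) and Thy1 (0.0085), and with the replicate block for Ythdf2 (0.0046). With DESeq2's size factors it changed for Cdr1 (-0.0049) and Ythdf1 (-0.011), with DESeq2 for Ythdf1 (-0.0075), with a mean of at least 5 CPM for Cdr1 (-0.020) and Ythdf1 (-0.028), and with the length trend removed for Cdr1 (-0.031), Yme1l1 (-0.010) and Ythdf1 (-0.034). The cause was not tested. Of 38 list medians 15 moved beyond the spread between animals in some setting, 5 without vehicle animal 4. Vehicle animal 4 had fewer than 10 IP counts at 5435 tested genes, and it also stood apart at abundant transcripts such as mt-Nd4l.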
